A study of Mus musculus with 12 samples.

Results

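The genes described here are the 3 sestrins, 3 FOXO transcription factors and 4 further genes that restrain the kinase complex mTORC1 or respond to nutrient stress. They are Sesn1, Sesn2, Sesn3, Foxo1, Foxo3, Foxo4, Txnip, Ddit4, Tsc1 and Deptor. The members were selected on gene symbol around Sesn1, and Sesn1 was chosen by its measured LPS to PBS difference in these same libraries. All 10 genes were found among the 55487 genes of the table, and all 10 were among the 15801 genes with enough counts to be tested. Because the choice rested on the LPS effect, the LPS effects of the 10 genes are given as values without tests. The stated choice did not use the comparisons between genotypes under PBS and under LPS, and these were tested. Earlier results of these data were known when the members were chosen, so full independence of these tests is not claimed. The difference of the LPS effect between genotypes was tested too, but it is built from the LPS differences by which Sesn1 was chosen. Its Sesn1 value is therefore not independent of the choice.

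The study profiled polyadenylated RNA from bone marrow-derived macrophages, which are primary cells grown from mouse marrow with macrophage colony-stimulating factor. The mice were Fes+/+ (called wild type here) or Fes-/-, and Fes encodes a cytoplasmic tyrosine kinase of myeloid cells. Each genotype was kept in PBS or stimulated with 1 µg/mL lipopolysaccharide (LPS), the outer membrane component of Gram-negative bacteria that activates the receptor TLR4, and collected at 4 hours. There were 3 numbered biological libraries in each of the 4 groups, 12 in all, and the design text counts 3 mice of each genotype without saying which libraries share a mouse. The PBS cells are described as untreated in the protocol. The Fes allele, the age and the sex of the mice were not given in the sources used here. All libraries carried 1 batch date.

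Sestrins are stress-induced proteins that bind the GATOR2 complex at the lysosome and by this hold back the Rag GTPases that recruit mTORC1, the kinase complex that drives protein synthesis and represses autophagy. SESN1 and SESN2 also bind leucine, which releases them from GATOR2. FOXO factors are forkhead transcription factors that AKT phosphorylates and keeps out of the nucleus when growth factor signalling is high, and genes for sestrins, stress defence and atrophy are among their targets. TSC1 stabilizes the TSC complex, which switches off the mTORC1 activator RHEB. DDIT4 (REDD1) acts upstream of TSC, and DEPTOR is an inhibitory subunit bound to mTOR itself. TXNIP is an arrestin-family protein that binds thioredoxin and limits glucose uptake, and its gene is a standard target of the glucose-sensing factor MondoA.

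Promoter sequences were read for members with an entry in RefSeq (GRCm38.p6), and 8 of the 10 genes had one, with 9 entries because Sesn1 has 2 annotated starts. Shown are the 3 that overlap no annotated untranslated region of a transcript. They belong to the sestrin with the largest LPS difference, the sestrin with the smallest, and the most abundant of the 10 genes. Each is the stretch of 250 bases that ends just before an annotated start, written 5′ to 3′ on the gene's own strand. Capitals mark every match, on either strand, to one of the motifs searched: a CCAAT box (CCAAT or ATTGG), a FOXO site (TGTTTAC or GTAAACA) and a core element of the carbohydrate response motif (CACGAG or CTCGTG).
Sesn1, second start, chr10:41887189-41887438, plus strand: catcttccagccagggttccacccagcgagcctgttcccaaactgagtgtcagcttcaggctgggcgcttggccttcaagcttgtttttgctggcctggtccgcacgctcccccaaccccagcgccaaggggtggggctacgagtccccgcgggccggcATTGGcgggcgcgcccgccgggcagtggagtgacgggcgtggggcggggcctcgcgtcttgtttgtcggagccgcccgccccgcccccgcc
Sesn3, chr9:14276051-14276300, plus strand: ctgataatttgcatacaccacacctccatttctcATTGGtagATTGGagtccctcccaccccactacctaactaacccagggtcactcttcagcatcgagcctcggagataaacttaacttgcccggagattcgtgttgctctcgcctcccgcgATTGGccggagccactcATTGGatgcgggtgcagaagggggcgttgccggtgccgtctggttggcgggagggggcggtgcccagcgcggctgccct
Txnip, chr3:96557707-96557956, plus strand: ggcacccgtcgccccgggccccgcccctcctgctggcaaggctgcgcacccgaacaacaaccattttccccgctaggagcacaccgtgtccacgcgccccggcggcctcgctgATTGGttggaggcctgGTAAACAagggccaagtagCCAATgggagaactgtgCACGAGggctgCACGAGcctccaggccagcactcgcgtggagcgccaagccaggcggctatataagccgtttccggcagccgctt
The Sesn1 and Sesn3 stretches each lie inside the gene, between exons, and the annotated Sesn3 gene begins further upstream, at 14275067. Which starts of Sesn1 and Sesn3 the macrophages used was not measured. The Txnip stretch also overlaps an exon of the antisense gene Gm15441.

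CCAAT boxes were in 7 of the 9 member promoters, against 33.85% of all 32851 promoters of the same length. The Sesn3 stretch held 4 copies and the Sesn1 stretch 1 copy, 91 bases before its start. The FOXO site was in the Txnip promoter alone among the 9, 121 bases before the start, and in 3.17% of all promoters. Txnip was also the one member promoter with the carbohydrate response letters, in 2 copies that begin 85 and 74 bases before the start, against 5.37% of all promoters with at least 1. The E-box CACGTG (6.02% of all promoters) and the ATF4 element TGATGCAA (0.79%) were in none of the 9 windows, on either strand. A match is a string of letters and not a measured binding site.

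Library totals ran from 61016254 to 101027166 counts. Fes itself checked the labels: 179 ± 10.2 CPM (library-size-scaled counts; SD, n = 3) in wild type under PBS against 68.6 ± 2.05 in Fes-/-, and 162 ± 9.77 against 33.8 ± 1.16 under LPS, so Fes RNA was reduced and not absent. All 8 macrophage markers examined were at 1 CPM or more in every group, with a summed level of 9786 to 15951 CPM. The neutrophil list was lower in Fes-/- than in wild type under PBS, at 3.56 to 4.79 against 5.25 to 7.19 CPM per library, and overlapped under LPS, at 4.20 to 5.94 against 5.00 to 8.05 CPM. The T or NK cell and erythroid lists summed to at most 0.618 CPM. The mast cell list was highest in Fes-/- under LPS, at 0.721 to 1.04 CPM against 0.255 to 0.696 CPM over the PBS libraries and 0.342 to 0.622 CPM in wild type under LPS. Kit carried nearly all of the mast cell list, at a mean of 0.864 CPM in Fes-/- under LPS. The stromal list was higher under LPS, at 0.734 to 0.984 against 0.0669 to 0.553 CPM in wild type and at 0.966 to 1.88 against 0.290 to 0.878 CPM in Fes-/-. Dcn carried most of this difference, from a mean of 0.0389 to 0.557 CPM in wild type and from 0.0228 to 0.567 CPM in Fes-/-. In wild type Col1a2 went from 0.107 to 0.157 CPM, while Col1a1 (0.0967 to 0.0780 CPM) and Col3a1 (0.0556 to 0.0357 CPM) were lower under LPS. The dendritic list was 1.02 to 1.31 against 0.571 to 0.691 CPM in Fes-/- and overlapped in wild type. Xcr1 carried most of the Fes-/- difference, from a mean of 0.0403 to 0.486 CPM, while Zbtb46 went from 0.317 to 0.275 CPM. The B cell list moved with LPS, from 5.96 to 7.94 CPM in PBS libraries to 1.82 to 2.47 CPM in Fes-/- and 2.67 to 3.21 CPM in wild type under LPS. Cd79b carried nearly all of it. The part of these lists in the values of the 10 genes, between treatments or genotypes, was not tested. In bulk RNA, fewer cells of a type and less RNA per cell cannot be told apart.

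One scaling choice bears on every LPS value below. CPM here are scaled by TMM, which centres the bulk of genes, and its factors were 1.35 to 1.40 in PBS libraries against 0.707 to 0.737 in LPS libraries. With library totals alone, the median LPS difference of all genes moved by -0.913 on the log2 scale in wild type and by -0.934 in Fes-/-. Values after TMM are therefore relative to the typical gene, and the value on library totals is given beside them where the direction depends on it.

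Sesn1, a p53 target and one of the leucine-binding sestrins, had the second highest TPM of the 10 genes at rest and the largest LPS difference among them. In wild type, the PBS libraries 1 to 3 held 258, 324 and 265 CPM, and the LPS libraries held 1.87, 1.58 and 2.07 CPM. In Fes-/-, the PBS libraries held 219, 197 and 276 CPM, and the LPS libraries 2.10, 3.32 and 2.20 CPM. Every LPS library was far below every PBS library, and the lowest PBS library held 18924 counts against 74 to 188 counts in the LPS libraries. The log2 difference was -7.26 ± 0.19 (SE) in wild type, where 0.653% of the PBS level remained, and -6.51 ± 0.18 in Fes-/-, where 1.10% remained. Ranked from the lowest LPS difference upward, Sesn1 stood at place 26 of the 15801 tested genes in wild type and at place 54 in Fes-/-.

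Sesn2, the leucine sensor induced by ATF4, p53 and NRF2, was also lower under LPS in every library. The wild-type PBS libraries held 31.3, 46.3 and 43.3 CPM and the LPS libraries 4.61, 2.22 and 5.12 CPM. The Fes-/- PBS libraries held 40.3, 39.2 and 35.9 CPM and the LPS libraries 6.22, 7.05 and 4.33 CPM. The treatments did not overlap in either genotype. LPS minus PBS on the log2 scale was -3.34 ± 0.26 in wild type and -2.71 ± 0.25 in Fes-/-.

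Sesn3, the sestrin best known as a FOXO target, behaved unlike the others. In wild type, PBS libraries 1 to 3 held 22.7, 32.8 and 23.7 CPM and the LPS libraries 19.7, 19.7 and 26.0 CPM. In Fes-/-, PBS libraries 1 to 3 held 22.9, 19.6 and 21.4 CPM and the LPS libraries 26.3, 29.0 and 22.8 CPM. The treatments overlapped in both genotypes, with 1 wild-type LPS library and 1 Fes-/- LPS library inside the PBS range. After TMM the log2 difference was -0.28 ± 0.15 in wild type and 0.29 ± 0.15 in Fes-/-, while on library totals it was -1.19 and -0.64, so the direction in Fes-/- flips with the scaling.

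**Figure D1:**
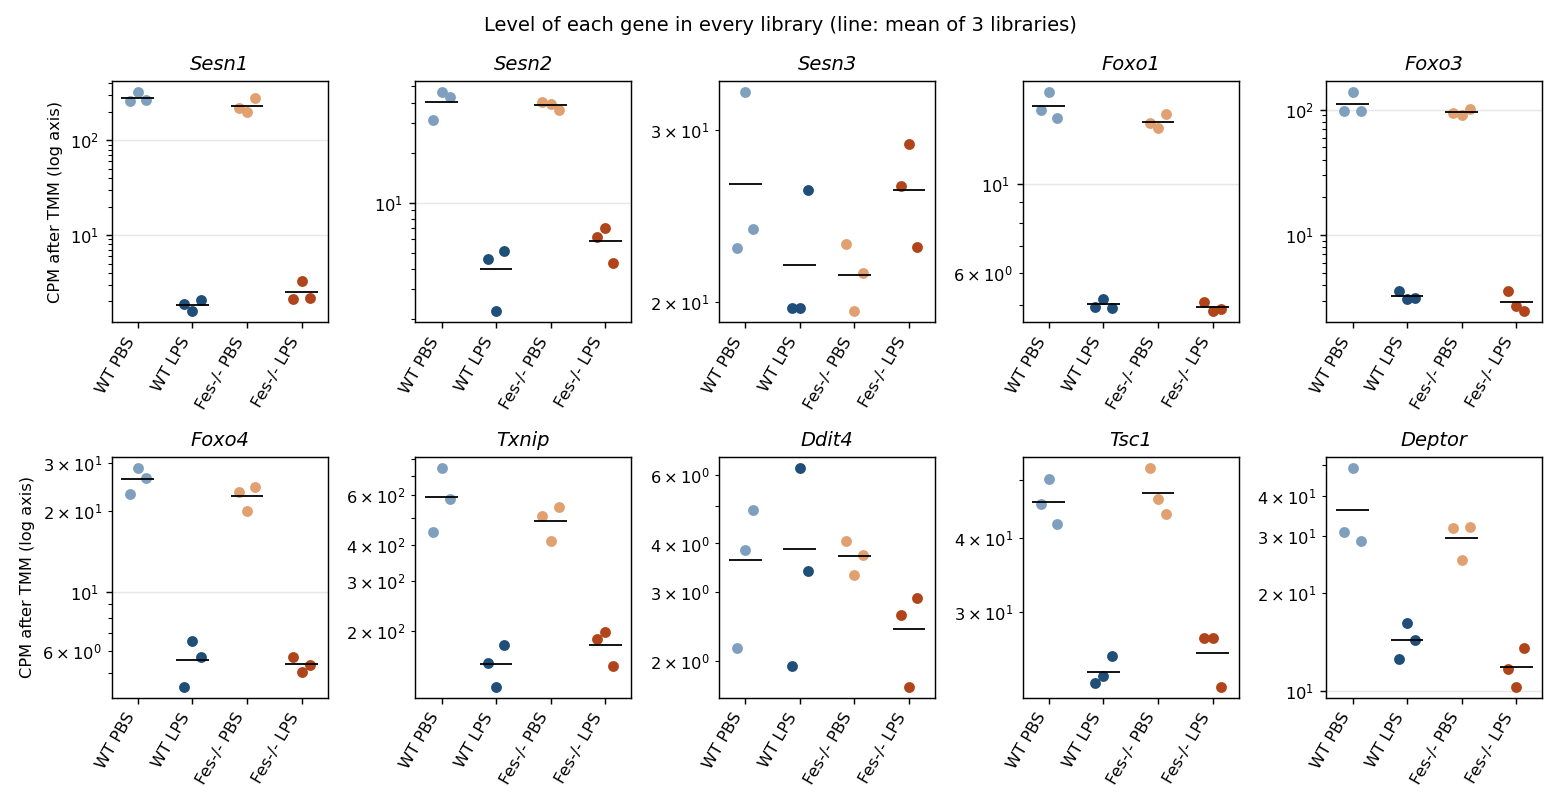
Level of each of the 10 genes in every library, in CPM after TMM on a log axis, with the 3 libraries of each group as points and their mean as a line (WT, wild type). The LPS points of Sesn1 lie between 1.58 and 3.32 CPM and its PBS points between 197 and 324 CPM, while the Sesn3 and wild-type Ddit4 points of the 2 treatments overlap.

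The share of each sestrin in the family total changed accordingly. TPM values, which correct for transcript length, were used to compare genes. In wild type under PBS, Sesn1 made up 84.2% ± 1.74 (SD, n = 3) of the summed sestrin TPM, Sesn2 13.7% ± 1.76 and Sesn3 2.04% ± 0.157. Under LPS the same shares were 15.5% ± 1.52, 36.8% ± 8.18 and 47.7% ± 6.96. The Fes-/- libraries went from 82.0% ± 3.09 to 15.8% ± 2.40 for Sesn1 and from 1.99% ± 0.243 to 42.6% ± 2.72 for Sesn3. The summed sestrin level itself was 391 ± 53.6 TPM in wild type under PBS and 7.34 ± 1.71 TPM under LPS, and 337 ± 34.3 against 9.82 ± 1.71 TPM in Fes-/-. Sesn3 thus had the largest mean share of a much smaller pool under LPS in both genotypes, although its range met that of Sesn2 in each: 41.8% to 55.4% against 27.5% to 43.0% in wild type, and 39.8% to 45.3% against 37.9% to 44.4% in Fes-/-.

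**Figure D2:**
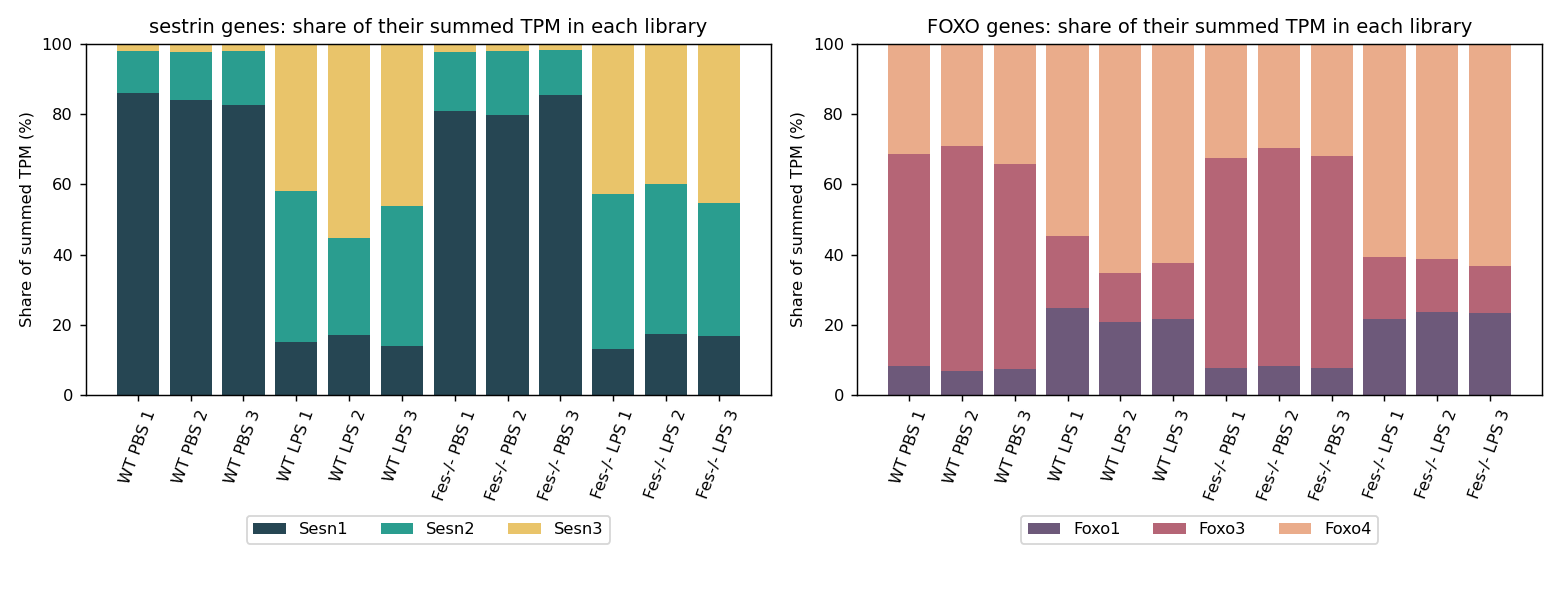
Share of each sestrin (left) and of each FOXO gene (right) in the summed TPM of its family, in percent, with 1 bar per library. Sesn1 fills 79.8% to 86.1% of the sestrin bars under PBS and 13.0% to 17.5% under LPS, and Foxo3 fills 58.3% to 64.1% of the FOXO bars under PBS and 13.5% to 20.5% under LPS.

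Among the FOXO factors, Foxo3, the main FOXO transcript of these cells at rest, had the largest LPS difference. PBS libraries 1 to 3 of wild type held 97.1, 139 and 98.6 CPM and the LPS libraries 3.60, 3.10 and 3.15 CPM. PBS libraries of Fes-/- cells held 94.5, 91.1 and 101 CPM and the LPS libraries 3.61, 2.74 and 2.47 CPM. The treatments were separated by a wide gap in both genotypes. The log2 difference was -5.09 ± 0.16 in wild type and -5.01 ± 0.15 in Fes-/-, leaving 2.95% and 3.11% of the PBS level.

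Foxo1, which controls metabolic and homing genes in many immune cells, stood at 8.32 TPM at rest in wild type, with tightly grouped values. The wild-type PBS libraries held 15.2, 16.9 and 14.6 CPM and the LPS libraries 4.96, 5.20 and 4.93 CPM. The Fes-/- PBS libraries held 14.1, 13.7 and 14.9 CPM and the LPS libraries 5.09, 4.84 and 4.90 CPM. The 6 LPS libraries were nearly equal and all below the 6 PBS libraries. LPS minus PBS on the log2 scale was -1.63 ± 0.09 in wild type and -1.53 ± 0.09 in Fes-/-.

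Foxo4, the X-linked FOXO gene, took an intermediate place. In wild type, PBS libraries 1 to 3 held 23.1, 28.9 and 26.6 CPM and the LPS libraries 4.43, 6.56 and 5.72 CPM. In Fes-/-, PBS libraries 1 to 3 held 23.5, 19.9 and 24.6 CPM and the LPS libraries 5.73, 5.03 and 5.35 CPM. No LPS library reached a PBS library. The log2 difference was -2.23 ± 0.14 in wild type and -2.07 ± 0.13 in Fes-/-.

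With these unequal reductions, Foxo4 replaced Foxo3 as the largest share of the summed FOXO TPM. In wild type Foxo3 held 61.0% ± 2.93 of the summed FOXO TPM under PBS and 16.8% ± 3.30 under LPS, while Foxo4 went from 31.5% ± 2.56 to 60.8% ± 5.37 and Foxo1 from 7.54% ± 0.723 to 22.4% ± 2.07. In Fes-/- the Foxo3 share was 60.8% ± 1.27 under PBS and 15.4% ± 2.07 under LPS, and the Foxo4 share 31.2% ± 1.49 and 61.7% ± 1.35. The ranges of Foxo3 and Foxo4 did not meet in any group. The summed FOXO level was 111 ± 18.8 TPM in wild type under PBS and 6.30 ± 0.669 TPM under LPS, with 99.5 ± 4.32 and 6.09 ± 0.418 TPM in Fes-/-.

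Txnip had the highest TPM of the 10 genes in all 4 groups. PBS libraries 1 to 3 of wild type held 444, 749 and 580 CPM and the LPS libraries 155, 128 and 179 CPM. PBS libraries of Fes-/- cells held 505, 416 and 546 CPM and the LPS libraries 188, 200 and 152 CPM. All LPS libraries were lower than all PBS libraries, and the wild-type PBS libraries were the most spread. LPS minus PBS on the log2 scale was -1.94 ± 0.18 in wild type and -1.44 ± 0.18 in Fes-/-. The antisense gene Gm15441 covers 19.4% of the Txnip exon length, had at most 57 counts in any library, and reads of the pair may be mixed because the strand setting of the counting was not given in the sources used here.

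Ddit4, induced by hypoxia and glucocorticoids, had the fewest counts of the 10 genes under PBS, 223 to 437 per library. The wild-type PBS libraries held 2.16, 3.85 and 4.87 CPM and the LPS libraries 1.94, 6.27 and 3.40 CPM. The Fes-/- PBS libraries held 4.07, 3.32 and 3.73 CPM and the LPS libraries 2.63, 1.71 and 2.90 CPM. The wild-type treatments overlapped, whereas the 3 Fes-/- LPS libraries lay below the 3 Fes-/- PBS libraries. In wild type the log2 difference was 0.10 ± 0.38 after TMM, -0.83 on library totals, -0.44 without LPS library 2 and -0.17 without PBS library 1, so it has no settled direction. In Fes-/- it was -0.62 ± 0.38 after TMM and -1.56 on library totals.

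Tsc1 was lower under LPS by a smaller amount than most. In wild type, PBS libraries 1 to 3 held 45.7, 50.3 and 42.2 CPM and the LPS libraries 22.7, 23.4 and 25.2 CPM. In Fes-/-, PBS libraries 1 to 3 held 52.5, 46.4 and 43.9 CPM and the LPS libraries 27.1, 27.1 and 22.4 CPM. The treatments did not overlap in either genotype. The log2 difference was -0.95 ± 0.10 in wild type and -0.90 ± 0.10 in Fes-/-.

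Deptor, the inhibitor bound to mTOR, was lower under LPS as well. PBS libraries 1 to 3 of wild type held 30.9, 48.9 and 29.0 CPM and the LPS libraries 12.5, 16.2 and 14.3 CPM. PBS libraries of Fes-/- cells held 31.8, 25.3 and 32.2 CPM and the LPS libraries 11.6, 10.3 and 13.5 CPM. Wild-type PBS library 2 stood above the other PBS libraries, and no LPS library reached the PBS range. LPS minus PBS on the log2 scale was -1.34 ± 0.19 in wild type and -1.33 ± 0.19 in Fes-/-. The processed transcript Gm9920 on the opposite strand overlaps 3.41% of the Deptor exon length and had at most 162 counts.

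Counted over the 10 genes, the 3 LPS libraries lay wholly below the 3 PBS libraries for 8 genes in wild type and for 9 genes in Fes-/-. Of all tested genes, 39.8% did so in wild type and 41% in Fes-/-. Since the choice of genes used this contrast, nothing is read from the difference between these shares. Sesn3 overlapped in both genotypes and Ddit4 overlapped in wild type.

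**Figure D3:**
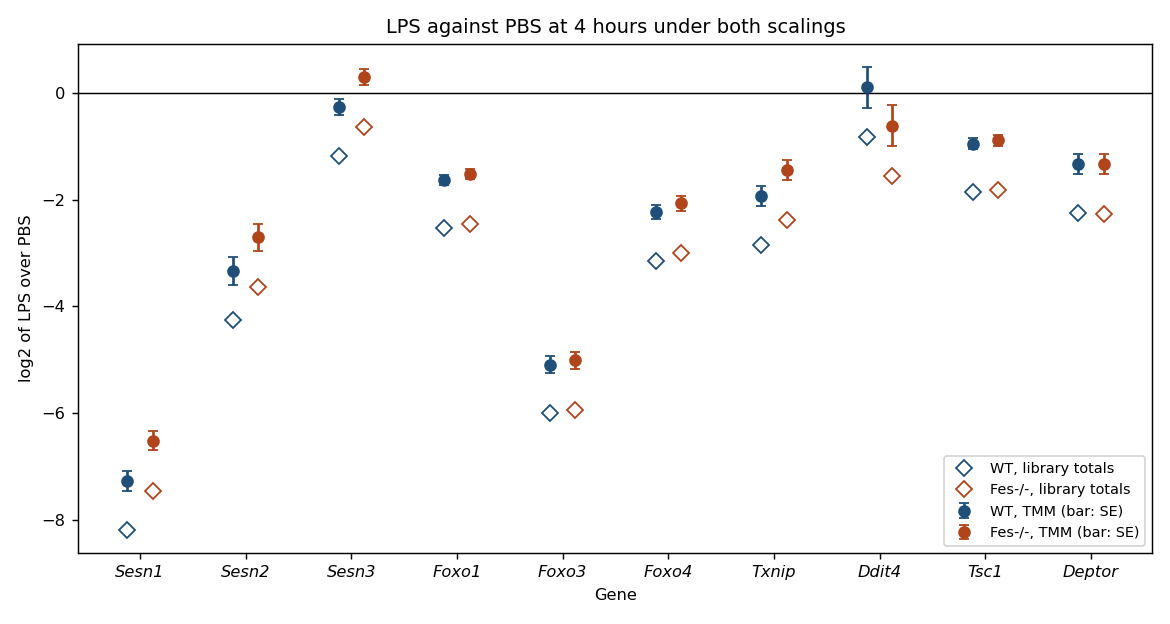
Log2 of LPS over PBS for each gene, after TMM (filled circles, bars are SE) and on library totals (open diamonds), in wild type and Fes-/-. Sesn1 and Foxo3 lie lowest, at -7.26 and -5.09 in wild type after TMM, and the values of Sesn3 in Fes-/- and of Ddit4 in wild type change sign between the scalings.

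Set out by level per length, the order of the 10 genes changed with LPS. In wild type under PBS the order of mean TPM was Txnip (878), Sesn1 (329), Foxo3 (68.2), Sesn2 (53.9), Foxo4 (34.9), Deptor (19.0), Tsc1 (18.0), Ddit4 (9.58), Foxo1 (8.32) and Sesn3 (8.02). Foxo3 and Sesn2 overlapped in range, as did Deptor and Tsc1, and so did each neighbouring pair among Ddit4, Foxo1 and Sesn3. In wild type under LPS Txnip remained first at 119 TPM. The next 6, Ddit4 (5.31), Tsc1 (4.85), Deptor (3.90), Foxo4 (3.86), Sesn3 (3.45) and Sesn2 (2.78), overlapped with their neighbours except between Tsc1 and Deptor. Foxo1 (1.40), Sesn1 (1.12) and Foxo3 (1.05) came last, and the last pair overlapped. In Fes-/- the order under PBS differed from wild type in the Tsc1 and Deptor pair alone, with 19.4 and 16.1 TPM. Under LPS in Fes-/-, Txnip (140) was first and Foxo3 (0.945) last, and Sesn1 (1.55) overlapped Foxo1 (1.39).

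Whether loss of Fes altered these genes was tested with edgeR's quasi-likelihood test and Benjamini-Hochberg adjustment over all 15801 genes. Under PBS none of the 10 genes was called at an adjusted p under 0.05, where 0.0823% of all tested genes were called. None had an unadjusted edgeR p under 0.05 either, where 605 of all 15801 tested genes had one, and DESeq2 called none. The Fes-/- mean was lower for 8 of the 10, with a median log2 difference of -0.22, the adjusted p values ran from 0.975 to 1, and the libraries of the genotypes overlapped for all 10, where 6.82% of all tested genes did not overlap. All 10 confidence intervals (95%) lay within a 2-fold change in either direction. The Sesn1 difference was -0.29 ± 0.15, with an interval from -0.62 to 0.04, and the Foxo3 difference was -0.22 ± 0.13, from -0.51 to 0.07.

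Under LPS none of the 10 genes was called between genotypes by edgeR or DESeq2, where edgeR called 0.108% of all tested genes. None had an unadjusted p under 0.05 in edgeR, where 1030 of all 15801 tested genes had one. Sesn1 was the one gene whose libraries did not overlap, at 2.10 to 3.32 CPM in Fes-/- against 1.58 to 2.07 CPM in wild type, where 11.4% of all tested genes did not overlap in either direction. Its log2 difference was 0.46 ± 0.21 (interval -0.0035 to 0.92, unadjusted p 0.051, adjusted p 0.767), and it was 0.22 without Fes-/- LPS library 2. Sesn2 differed by 0.56 ± 0.27 (adjusted p 0.782) and by 0.28 without wild-type LPS library 2. Ddit4 differed by -0.68 ± 0.39 (adjusted p 0.813), and by -0.15 without wild-type LPS library 2. The intervals of Sesn2 and Ddit4, up to 1.17 and down to -1.54, reached beyond a 2-fold change, and the other 8 did not. Without any filter on low counts, which raises the genes tested to 28358, edgeR called Sesn1 (adjusted p 0.0267), Sesn2 (0.00053) and Ddit4 (0.0415) under LPS, and the cause was not tested. Over all alternatives the adjusted p of each of these 3 ran from that value to 1.

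The difference of the LPS effect between genotypes was tested as an interaction. No member was called (adjusted p 1 for all 10), where 0.019% of all tested genes were called, and DESeq2 called none. Sesn1 and Sesn3 had an unadjusted p under 0.05, as did 464 of all 15801 tested genes. The LPS effect on Sesn1, as Fes-/- minus wild type, differed by 0.75 ± 0.26 on the log2 scale (interval 0.18 to 1.31, unadjusted p 0.0136), and it lay between 0.51 and 0.89 when any 1 library was left out. Because Sesn1 was chosen by its LPS difference, this interval and p are not independent of the choice. The Sesn3 difference was 0.57 ± 0.21 (interval 0.11 to 1.02, unadjusted p 0.0178) and lay between 0.39 and 0.72. Sesn2 stood at 0.63 ± 0.36 and Txnip at 0.50 ± 0.26, each with an interval that included 0. The FOXO genes stood between 0.08 and 0.16, Tsc1 at 0.06 and Deptor at 0.01, and Ddit4 at -0.72 ± 0.54. With genotype and replicate number together as a block, which treats same-numbered PBS and LPS libraries as 1 mouse, no member was called (adjusted p 1 for all 10) and the unadjusted p was 0.0539 for Sesn1, 0.0386 for Sesn3 and 0.0455 for Ddit4. Without the filter on low counts Sesn1 (adjusted p 0.00233), Sesn2 (0.0239) and Sesn3 (0.0347) were called, the cause was not tested, and over all alternatives each adjusted p ran from that value to 1.

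**Figure D4:**
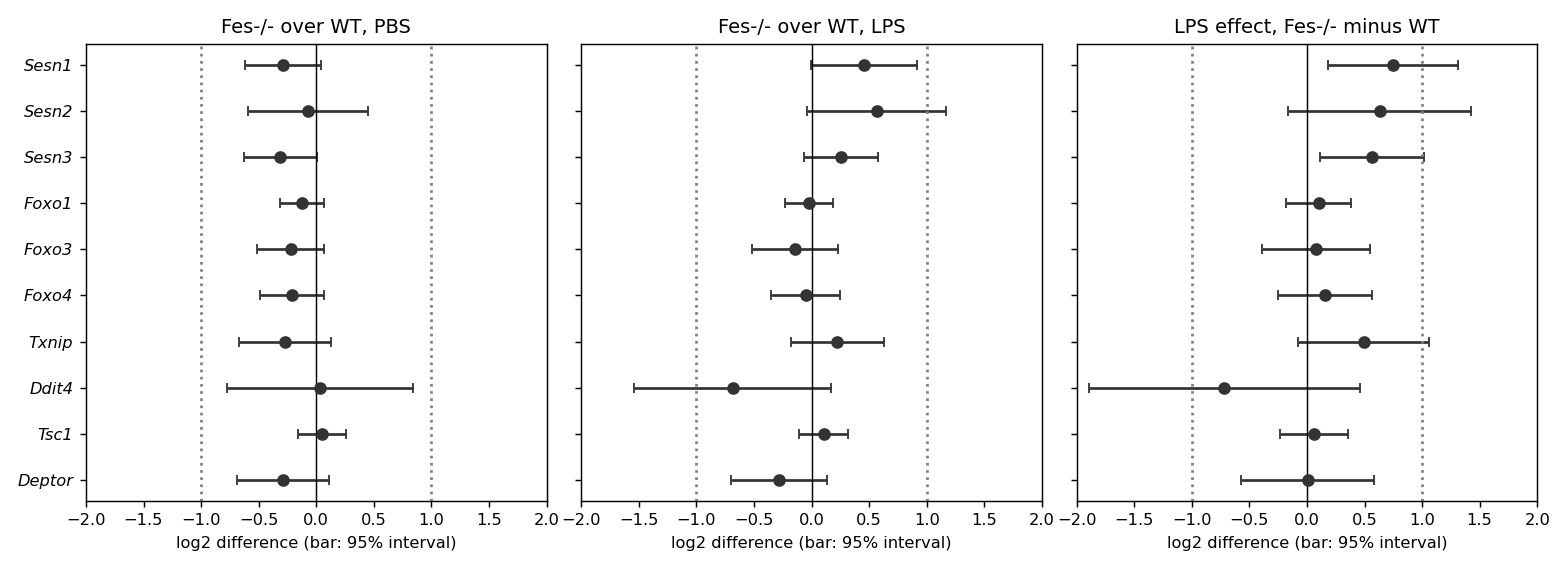
Log2 difference of each gene between Fes-/- and wild type under PBS (left) and under LPS (middle), and the difference of the LPS effect, Fes-/- minus wild type (right), with 95% confidence intervals and dotted lines at a 2-fold change. All intervals under PBS lie inside the dotted lines, and the intervals of Sesn1 (0.18 to 1.31) and Sesn3 (0.11 to 1.02) on the right lie above 0. The Sesn1 value on the right is not independent of its choice by LPS difference.

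The pathway around these genes was read from 11 lists that hold none of the 10. Of their 184 genes, 180 were tested. Under LPS in wild type 64 rose, 90 fell and 26 did not pass, which is 154 called genes where 73.4% of all tested genes were called (34.6% higher, 38.8% lower). In Fes-/- 68 rose and 88 fell, where 73.2% of all tested genes were called (34.3% higher, 38.9% lower). The median log2 difference of the 180 genes was -0.28 in wild type against -0.07 for all tested genes, and -0.26 against -0.08 in Fes-/-. On library totals the wild-type split was 34 higher and 129 lower, as all tested genes also moved, with 19.2% of called genes higher on totals against 47.1% after TMM. None of the 180 was called between genotypes under PBS or LPS or in the interaction by edgeR or DESeq2. An unadjusted edgeR p under 0.05 was found for 6 under PBS, 10 under LPS and 7 in the interaction. Of all 15801 tested genes, 605, 1030 and 464 had one. Values below are wild-type log2 differences after TMM with SE, and each list's split on library totals follows its count. The lists were chosen with earlier results of these data known. Apart from Tsc2, the genes named were picked by smallest p in this same contrast, so their p values are not independent of the choice.

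GATOR2, on which sestrins act, is 1 part of a broader list for GATOR complexes, Rag GTPases and lysosomal amino-acid sensing. Of its 26 tested genes 17 fell and 7 rose (23 and 2 on library totals), with the same 17 and 7 as counts in Fes-/-. Of all tested genes 38.8% were lower and 34.6% higher in wild type. Flcn, the folliculin gene whose product activates RagC and RagD, fell by 3.64 ± 0.13, from 76.3 ± 11.1 to 6.14 ± 1.15 CPM. Castor2, of the arginine-sensor family that binds GATOR2, changed by -2.37 ± 0.10. Both named rises encode subunits of GATOR2, the direct sestrin partner: Wdr59 rose by 2.68 ± 0.07, from 14.3 ± 0.721 to 91.8 ± 6.10 CPM, and Seh1l by 1.71 ± 0.07. These 4 directions were the same on library totals and in Fes-/-, and the adjusted p was at most 2.37e-11 in wild type.

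Of 14 genes for the mTOR complexes, TSC and RHEB, 6 rose and 6 fell (2 and 11 on library totals). Both named rises belong to mTORC2, the other mTOR complex: Rictor rose by 2.31 ± 0.13 and Prr5l by 4.04 ± 0.23, from 3.71 ± 1.05 to 61.1 ± 3.60 CPM. Mlst8, a subunit of both complexes, changed by -2.15 ± 0.09, and Akt1s1, which encodes the mTORC1 inhibitor PRAS40, by -1.55 ± 0.11. Tsc2, the partner of Tsc1, did not pass (-0.08 ± 0.07, adjusted p 0.332 by edgeR), but stood at -0.99 on library totals. Of 12 mTORC1 effectors, 4 rose and 6 fell (1 and 10 on totals). Tfeb, the lysosomal master regulator that mTORC1 inhibits, fell by 4.97 ± 0.15 to 1.02 ± 0.246 CPM, and the translation repressor Eif4ebp2 changed by -2.72 ± 0.11. Larp1, which binds mRNAs for the translation machinery, rose by 3.40 ± 0.14, and the cap-binding Eif4e by 1.31 ± 0.20, a call that was lost on library totals (0.40, adjusted p 0.0932).

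AMPK and its kinase LKB1 counter mTORC1 when energy is short. Of their 9 genes, 7 fell and 2 rose (8 and 0 on library totals). The regulatory subunits Prkag2 and Prkag1 changed by -3.18 ± 0.14 and -0.88 ± 0.08. The catalytic subunit Prkaa2 rose by 1.48 ± 0.35 to 1.05 ± 0.166 CPM, a rise not called on library totals (0.57, adjusted p 0.147), and Prkaa1 stood at 0.32 ± 0.07 after TMM and at -0.60 on library totals, so its direction depends on the scaling.

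The PI3K, AKT and SGK genes upstream of FOXO were the list with the highest median. Of 17, 8 rose and 6 fell after TMM, with a median of 0.40, but 5 rose and 10 fell on library totals, with a median of -0.51. Pik3r5, a regulatory subunit of PI3K gamma, rose by 3.47 ± 0.09 and Sgk3, a kinase related to AKT, by 2.34 ± 0.09. Inpp5d, the lipid phosphatase SHIP1 that opposes PI3K, changed by -2.26 ± 0.07 and Pik3r2 by -1.79 ± 0.09. Of 17 tested FOXO target genes, 7 rose and 9 fell (6 and 10 on totals). Fbxo32, the atrophy-linked ubiquitin ligase, changed by -5.96 ± 0.40 and S1pr1, a receptor for lymphoid trafficking, by -4.57 ± 0.16. Sod2, mitochondrial superoxide dismutase, rose by 4.78 ± 0.11, from 47.1 ± 6.15 to 1293 ± 125 CPM, and the repressor Bcl6 by 2.88 ± 0.15. Sod2 is also a well-known NF-kB target.

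The factors p53, ATF4 and NRF2 were read the same way, in lists made up mostly of their target and pathway genes. Of 22 tested genes for p53 and its targets, 8 rose and 10 fell (6 and 15 on library totals): Fas rose by 3.86 ± 0.12 and the cell cycle inhibitor Cdkn1a by 2.91 ± 0.11, while the DNA polymerase gene Polk changed by -3.20 ± 0.13 and Pidd1 by -2.82 ± 0.14. Of 23 for ATF4 and the integrated stress response, 10 rose and 9 fell (4 and 12 on totals). The cystine transporter Slc7a11 had the largest rise among the genes named, 7.41 ± 0.24, from 0.713 ± 0.182 to 122 ± 5.55 CPM, and Atf3 rose by 3.40 ± 0.10. Eif2ak3, the kinase PERK, changed by -3.38 ± 0.09 and Cebpg by -2.12 ± 0.07. Of 12 for NRF2 and its targets, 3 rose and 6 fell (2 and 10 on totals), with Txnrd1 at 2.12 ± 0.14, Keap1 at 1.18 ± 0.08, Gclc at -2.28 ± 0.15 and Hmox1 at -1.11 ± 0.11.

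Of 12 genes for MondoA, ChREBP and the partners of TXNIP, 4 rose and 5 fell (2 and 9 on library totals). Arrdc3 and Arrdc2, arrestin genes related to Txnip, changed by -5.17 ± 0.16 and -3.89 ± 0.22, in the direction of Txnip. Hk2, the hexokinase that starts glycolysis, rose by 4.12 ± 0.12, and Txn1, thioredoxin itself, by 1.37 ± 0.10. Of 16 hypoxia and glucocorticoid factors and targets, with Ddit4 itself a target of this kind, 5 rose and 9 fell (4 and 11 on totals). Dusp1, a MAP kinase phosphatase that MAP kinase signalling itself also induces, rose by 6.44 ± 0.11 and Hif1a by 2.91 ± 0.12. The glucocorticoid-induced Tsc22d3 (GILZ) changed by -4.61 ± 0.18 and the clock gene Per1 by -3.31 ± 0.17. Every named change in these last 5 lists kept its sign on library totals and in Fes-/-.

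**Figure D5:**
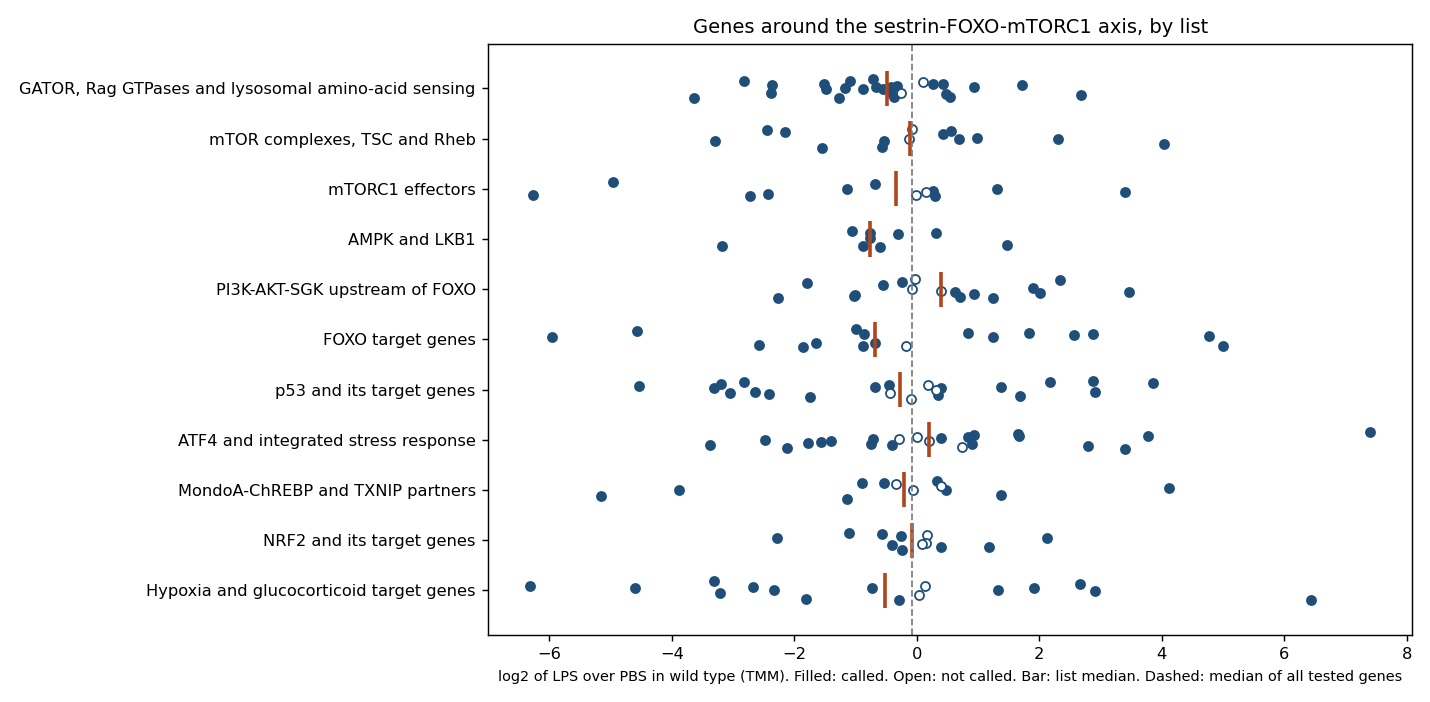
Log2 of LPS over PBS in wild type after TMM for every tested gene of the 11 lists, with filled points for called genes, open points for others, a bar at each list median and a dashed line at the median of all tested genes (-0.07). The AMPK list has the lowest median (-0.76) and the PI3K-AKT-SGK list the highest (0.40), and every list spreads to both sides of 0.

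Genes with a pattern like that of Sesn1 were sought by Pearson correlation of log2 CPM over the 12 libraries. The 9718 genes compared had a mean of at least 5 CPM in some group, and gene models with Gm or Rik names were left out. The 12 points fall into PBS and LPS libraries, so a gene with any steep and even LPS difference scores high, and no p is given. The 5 highest were Mfsd12, needed for cysteine import into lysosomes, Cebpg, Sec14l1, Rassf3 and Ctc1, each with r of 0.999 after rounding. Their own LPS differences in wild type ran from -1.52 for Ctc1 to -3.79 for Sec14l1, smaller than that of Sesn1. Among the other members, Foxo1 was at place 137 (r 0.995), Foxo3 at 179 (0.994), Foxo4 at 857 (0.986), Sesn2 at 1383 (0.978), Tsc1 at 1599 (0.975), Txnip at 1653 (0.974) and Deptor at 2726 (0.930). Sesn3 was at place 4750 with r of 0.0463. Ddit4 was not compared, since its mean was below 5 CPM in every group (at most 3.87 CPM).

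Sesn1 and Foxo3, the pair with the largest LPS differences, are neighbours on chromosome 10 (GRCm38). Sesn1 spans 41809935 to 41908424 on the plus strand and Foxo3 spans 42181841 to 42276755 on the minus strand, 273417 bases apart. This stretch was looked at after the values had been seen. Within 500000 bases on either side of the pair, 13 other genes were tested. In wild type 9 fell and 2 rose, where 38.8% of all tested genes were called lower and 34.6% higher. In Fes-/- 10 fell and 2 rose, where 38.9% were called lower and 34.3% higher. These counts are after TMM, as is the median log2 difference, which was -0.90 in wild type and -1.57 in Fes-/-, against -0.07 and -0.08 for all tested genes. The middle gene was Afg1l in wild type (-0.90, with -0.84 in Fes-/-) and Smpd2 in Fes-/- (-1.57, with -1.49 in wild type). Only Gm9855, with group means of 0.122 CPM or less, changed sides of these genes, from -0.74 (not called) to -1.85 (called). The 13 include 9930024M15Rik, which lies inside Sesn1 on the same strand, had at most 15 counts in any library and is counted among those that fell. Cep57l1 lies on the minus strand, and its annotated start at 41809871 is next to that of Sesn1 at 41809935. Cep57l1 changed by -2.11 ± 0.11, Armc2, between the pair, by -3.00 ± 0.35, and Mical1 by -2.83 ± 0.15. Snx3 did not pass (0.02 ± 0.11, adjusted p 0.88 by edgeR) but stood at -0.89 on library totals in wild type, and Cd164 rose by 1.74 ± 0.09. Sec63 stood at 0.51 ± 0.08 after TMM and at -0.40 on library totals. The lowest neighbour was Ppil6 at -3.41, a gene at 0.153 CPM or less.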

How the data were processed

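The authors deposited read counts per gene and TPM values per gene for 12 libraries. The submitters' processing notes list, with no order or role, the aligner STAR (version 2.7.8a), DESeq2 (1.34.0), Picard (2.9.0), R (4.1.12), and 2 genome builds, mm9 and GRCm38. The counting program and its strand setting are not given in the sources used here. Lengths implied by the deposited TPM and counts matched GENCODE M21 exon lengths (GRCm38) within 1% for 11021 of 11181 genes with 200 or more counts, all 10 members included, and coordinates are from that annotation.

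Counts were fitted in edgeR 4.0.16 (R 4.3.3) with TMM scaling, filterByExpr, 1 mean per group over all 12 libraries and 8 residual degrees of freedom. Robust glmQLFit and two-sided glmQLFTest were used, with Benjamini-Hochberg adjustment over all 15801 tested genes, called under 0.05. The 5 contrasts were the genotype effect under PBS and under LPS, the LPS effect in each genotype, and their difference. The alternatives were DESeq2 1.42.0, limma 3.58.1 on log2(TPM + 1) and log2(TPM + 0.1), other scalings and filters, the compared groups alone, replicate blocks and leaving out each library. The fit was tested on simulated data for the LPS effect in Fes-/- over 15801 genes. Of genes changed by 0.5 on the log2 scale 18 of 48 were called. At 1 it was 30 of 49, at 2 it was 45 of 48 and at 7 it was 50 of 50, with 7 false calls among 150. The confidence intervals held the set change for 48 of 48 genes at 0.5, 48 of 49 at 1 and 43 of 48 at 2. For changes of 7 no such count was made. These rates are for the LPS effect in Fes-/- alone and give none for the genotype comparisons or the interaction.

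The members and lists were chosen with earlier results of these data known. Named are all members, from each list up to 2 rises and 2 falls with the smallest p in wild type under LPS, and the 5 genes most correlated with Sesn1. Tsc2 and the chromosome 10 neighbours were added after their values were seen.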

Additional observations from a re-analysis of the deposited data

How the results depend on the processing

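Limits: groups of 3 libraries bound what could be called, and Ddit4, Sesn1 and Foxo3 under LPS rest on 74 to 293 counts per library. Calls between genotypes changed with 1 setting. Without any filter on low counts, 7 members and list genes were called under PBS (no member), 13 under LPS (Sesn1, Sesn2 and Ddit4 with 10 list genes) and 6 in the interaction (Sesn1, Sesn2, Sesn3 and 3 list genes), against 0 in each with the filter. Over all genes, that setting called 315, 358 and 90 genes against 13, 17 and 3, and the cause was not tested. DESeq2 called 33, 37 and 5 genes, no member among them. All other alternatives called no member and no list gene in these 3 comparisons.

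The LPS difference of Sesn3 in Fes-/- turned from 0.29 to -0.64 on library totals, to -0.58 on log2(TPM + 1) and to -0.68 on log2(TPM + 0.1), none of which applies the TMM factor. Shares by CPM in place of TPM, which leaves out gene length, were 81.0% for Sesn1 in wild type under PBS, 6.71% in wild type under LPS and 7.33% in Fes-/- under LPS. By CPM the Foxo3 share was 72.5% in wild type under PBS, 23.8% in wild type under LPS, 72.2% in Fes-/- under PBS and 22.0% in Fes-/- under LPS. In wild type under LPS the CPM shares of the others were 79.1% for Sesn3 and 14.2% for Sesn2, and 39.9% for Foxo4 (lowest library 34.1%) and 36.3% for Foxo1 (highest library 38.2%), so Foxo4 and Foxo1 overlap by CPM and not by TPM. List genes called under LPS numbered 154 in wild type and 156 in Fes-/-, and from 147 to 155 in each when 1 library was left out. By library totals they numbered 163 and 161.

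Replicate numbers are shared by all groups. The design text counts 3 mice per genotype, so PBS and LPS libraries would share mice if that number covers both treatments, but the labels do not say that a number marks 1 mouse. Libraries with the same number and genotype deviated together with r from 0.0678 to 0.189 over 6 pairs on log2 CPM with a prior count of 2, and from 0.206 to 0.374 on log2(CPM + 1). All 12 libraries correlated best with their own number within the genotype, but wild-type PBS library 2 and Fes-/- PBS library 3 reached 0.22 on the first scale, above every same-numbered pair. The main fit has no block. With the number as a replicate block across all groups, 153 list genes in wild type and 149 in Fes-/- were called under LPS, and 0 members or list genes between genotypes or in the interaction. With genotype and number together as a replicate block, 158 and 160 were called. The interaction of Sesn1 was then 0.75 ± 0.32 (unadjusted p 0.0539, adjusted p 1 by edgeR) and that of Sesn3 0.55 ± 0.22 (unadjusted p 0.0386, adjusted p 1), and that of Ddit4 -0.67 ± 0.30 (unadjusted p 0.0455, adjusted p 1). The block changed no call of a member.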
